A study of Mus musculus with 9 samples.

Results

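The genes described here encode growth signals of the newborn heart and their receptors: the neuregulin ligand Nrg1 with the receptor genes Erbb2, Erbb3 and Erbb4, the insulin-like growth factor pair Igf1 and Igf1r, the fibroblast growth factor pair Fgf1 and Fgfr1, and the matrix proteoglycan gene Agrn. They were taken by gene symbol, 9 genes of the 56748 in the deposited table, and measured by RNA sequencing of whole hearts of mouse pups on postnatal day 1. The 9 libraries fall into 3 genotypes of 3 libraries each: CD36KO, a global knockout of Cd36, CD36CKO, labelled as a heart-specific knockout of Cd36, and wild type (WT). No treatment is named for any of these samples, and the sources used here do not give the strain, the litter, the Cre driver of CD36CKO or whether a library is 1 animal or a pool. All p-values below therefore rest on library-to-library spread, some of which may be technical.

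Neuregulins bind ERBB3 and ERBB4, and ERBB2, which has no known ligand of its own, is their preferred partner in the receptor dimer. In the mouse heart ERBB2 is required in heart muscle cells before and shortly after birth, when these cells still divide. IGF1 and FGF1 act through the receptor tyrosine kinases IGF1R and FGFR1, and agrin, a heparan sulfate proteoglycan of the matrix, binds dystroglycan on the muscle cell surface. All of these receptor kinases feed the same relay of RAS, MAP kinases, PI3 kinase and AKT inside the cell.

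Cd36, which encodes a fatty acid translocase, checked the labels. It had 72.4, 64.0 and 60.6 FPKM (fragments per kilobase of transcript, corrected for sequencing depth) in CD36KO, 201, 183 and 163 FPKM in CD36CKO, and 163, 150 and 125 FPKM in WT. The Cd36 level was lower in CD36KO than in WT and was not lower in CD36CKO, so these are called the libraries labelled CD36CKO, and each direction given for them rests on that label. The libraries held 14408631 to 20725356 reads. Mitochondrially encoded transcripts took 11.1% to 14.3% of the reads in CD36KO, 10.3% to 12.2% in the libraries labelled CD36CKO and 4.55% to 8.89% in WT. CD36KO 3 and CD36CKO 3 were the only libraries above 1 FPKM for the Y-linked gene Ddx3y, and CD36CKO 3 also held skeletal muscle transcripts (1832 FPKM over 12 markers, against 344 to 659 FPKM in the other 8 libraries). WT 3 correlated with WT 1 and WT 2 at 0.970 and 0.958 over the 12206 tested genes, against 0.987 between WT 1 and WT 2.

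The receptor genes of the neuregulin family are paralogs, and the short coding stretch below, which lies in a single exon of each gene and holds the conserved catalytic loop of the kinase domain, shows how far their messages differ at one of the most conserved places. The sequences are from GENCODE transcripts on GRCm38, 5′ to 3′ on the coding strand, and capitals mark bases that differ from Erbb2.
Erbb2 (chr11:98434238-98434279, plus strand): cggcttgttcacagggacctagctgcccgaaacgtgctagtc
Erbb3 (chr10:128572524-128572565, minus strand): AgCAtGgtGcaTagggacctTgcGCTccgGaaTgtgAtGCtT
Erbb4 (chr1:68080730-68080771, minus strand): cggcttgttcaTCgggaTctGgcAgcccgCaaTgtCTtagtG
Over these 42 bases Erbb3 differed from Erbb2 at 16 positions and Erbb4 at 10, an identity of 61.9% and 76.2%. Over the whole coding transcripts the longest exact run that Erbb2 shared with another family member was 22 bases with Erbb4, 16 with Erbb3 and 20 with Egfr. Igf1r shared up to 43 bases with the insulin receptor gene Insr, Fgfr1 up to 26 with Fgfr3, and Fgf1 up to 13 with Fgf2. How the authors treated reads with more than 1 match is not stated.

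Nrg1 (ENSMUSG00000062991), the neuregulin ligand gene, was the lowest of the 9 genes in every genotype. It had 0.0991, 0.170 and 0.121 FPKM in CD36KO, 0.0980, 0.0774 and 0.0543 FPKM in the libraries labelled CD36CKO, and 0.164, 0.0833 and 0.0883 FPKM in WT. These levels rest on 14 to 51 reads per library, above the limit of 3 reads that a count of 0 allows, and counting error alone is large at this depth. All 3 CD36KO libraries lay above all 3 labelled CD36CKO, while both overlapped WT. The closest pair, CD36KO 1 and CD36CKO 1, held 32 reads each. A lack of overlap between CD36KO and CD36CKO was found for 36.6% of all tested genes. Nrg1 lay below the mean of 1 FPKM over all libraries that was set for testing. With no such filter, none of its 3 comparisons passed the threshold, the closest being CD36KO minus CD36CKO at a log2 difference of 0.07 (FDR = 0.532 from limma, where FDR is the Benjamini-Hochberg adjusted p). A separate row with the same symbol (ENSMUSG00000118541), 186 bases long and within the span of the first, had 0 reads in every library. Nrg2, Nrg3 and Nrg4, the other neuregulin genes, averaged 0.403, 0 and 0.315 FPKM over the 9 libraries. By genotype Nrg2 averaged 0.135 FPKM in CD36KO, 0.315 FPKM in the libraries labelled CD36CKO and 0.760 FPKM in WT. Nrg4 averaged 0.275, 0.327 and 0.344 FPKM in the same order. Both lay below the mean set for testing and were not among the tested genes.

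Erbb2 (ENSMUSG00000062312, chromosome 11, 98303296 to 98328542 on the plus strand in the table's own positions, build not stated) was the only one of the 8 tested genes that passed the threshold in all 3 pairwise comparisons. It had 8.91, 8.38 and 8.68 FPKM in CD36KO, 11.5, 13.02 and 12.7 FPKM in the libraries labelled CD36CKO, and 17.7, 18.6 and 15.2 FPKM in WT. The 3 genotypes formed separate steps with no overlap, lowest in CD36KO and highest in WT. The CD36KO mean of 8.66 ± 0.266 FPKM (SD, n = 3) was 50.5% of the WT mean of 17.2 ± 1.77 FPKM, and the libraries labelled CD36CKO, at 12.4 ± 0.836 FPKM, reached 72.3% of it. Lower values without overlap were found for 17.8% of all tested genes in CD36KO against WT and for 17% in CD36CKO against WT. For CD36KO against CD36CKO the share was 17.3%.

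On the scale of log2(FPKM + 1), Erbb2 fell by 0.91 in CD36KO relative to WT (SE 0.10, 95% interval -1.14 to -0.67, FDR = 0.00257 from limma), which ranked 33rd of 12206 genes by p. In the libraries labelled CD36CKO it fell by 0.43 relative to WT (SE 0.10, FDR = 0.0288 from limma). CD36KO was lower than the libraries labelled CD36CKO by a log2 difference of -0.47 (SE 0.10, FDR = 0.0362 from limma). Of all genes tested, 12.5% passed in CD36KO minus WT in either direction, 12.7% in CD36CKO minus WT and 4.53% in CD36KO minus CD36CKO. Lower calls alone made up 6.7%, 7.32% and 1.93%, and higher calls 5.81%, 5.36% and 2.61%. The CD36KO call held in all 17 other settings tried, with log2 differences from -0.99 to -0.77. The other 2 comparisons held in fewer: CD36CKO minus WT in 6 of 17, lost on leaving out any 1 library other than WT 3, and CD36KO minus CD36CKO in 7 of 17, lost on leaving out any 1 library other than WT 2 or WT 3.

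**Figure D1:**
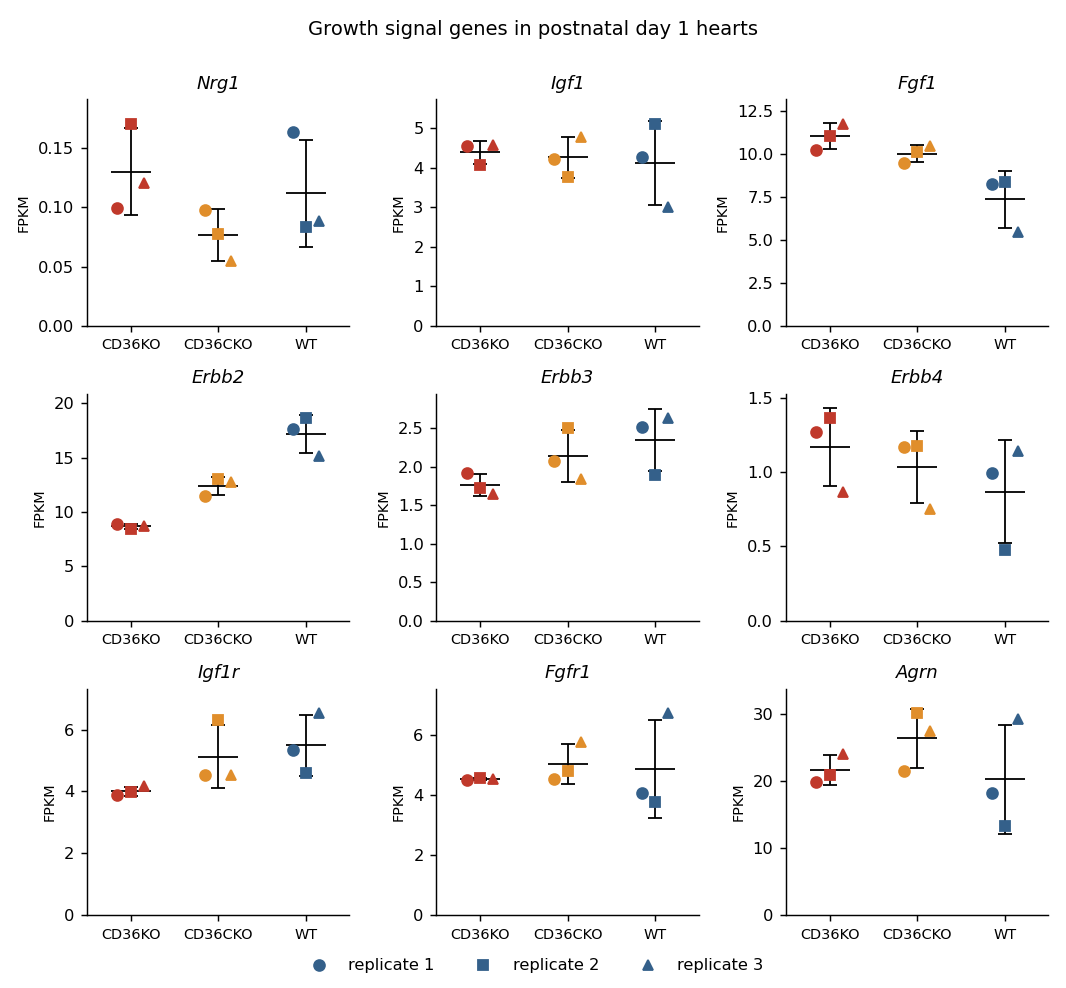
FPKM of the 9 genes in each library, with CD36KO on the left, the libraries labelled CD36CKO in the middle and WT on the right of each panel; symbols are replicates, the long bar is the mean and the whiskers 1 SD, and each axis starts at 0. Erbb2 forms 3 separate steps (8.38 to 8.91, 11.5 to 13.02 and 15.2 to 18.6 FPKM), Fgf1 is lowest in WT, and WT 3 (triangles) lies apart from the other WT libraries for Fgfr1 and Agrn.

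Other transcripts moved with Erbb2, and their part in its difference was not tested. With mitochondrial and haemoglobin genes taken out before scaling, which shifted the median of all genes by 0.10 in CD36KO and 0.22 in the libraries labelled CD36CKO relative to WT, Erbb2 differed by -0.77 in CD36KO (FDR = 0.00701 from limma) and by -0.17 in the libraries labelled CD36CKO (FDR = 0.273), a loss of that call. Relative to the shifted medians these were -0.87 and -0.40. Tnnt2, a thin filament gene of heart muscle, fell by 0.62 in CD36KO relative to WT (FDR = 0.0455 from limma) and differed by -0.42 in the libraries labelled CD36CKO. Tnnt2 had the largest fall of the 11 heart muscle markers in CD36KO. Their log2 differences ran from -0.62 to 0.42 with a median of -0.12 and 2 of 11 called lower, Tnnt2 and Actn2, and in the libraries labelled CD36CKO from -0.78 to 0.57 with a median of -0.42 and 1 called lower, Actn2. The summed level of the 11 heart muscle markers was 21749 to 25423 FPKM in CD36KO, 18129 to 21763 FPKM in the libraries labelled CD36CKO and 19593 to 33552 FPKM in WT.

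The 12 atrial markers also moved: they summed to 273 to 1528 FPKM in CD36KO, 780 to 2308 FPKM in the libraries labelled CD36CKO and 4437 to 7153 FPKM in WT. Relative to WT, 10 of the 12 were called lower in CD36KO and 6 in the libraries labelled CD36CKO, beside 6.7% and 7.32% of all tested genes. Their log2 differences ran from -4.66 to -0.17 in CD36KO and from -3.87 to 0.06 in the libraries labelled CD36CKO. The 10 epicardial markers summed to 25.9 to 38.3, 30.8 to 35.2 and 49.1 to 64.4 FPKM in the same order of groups, and the 6 endocardial markers to 53.8 to 66.9, 51.6 to 70.7 and 77.2 to 110 FPKM. The erythroid list summed to 3178 to 5103 FPKM in CD36KO, 4331 to 5509 FPKM in the libraries labelled CD36CKO and 5935 to 9212 FPKM in WT, and the macrophage list to 68.1 to 76.7, 53.0 to 67.4 and 77.2 to 113 FPKM. Single macrophage markers did not all follow that sum. Of 9 tested in CD36KO minus WT, 2 were called higher and 0 lower, with a median log2 difference of 0.17. In CD36CKO minus WT the median was -0.09, with 0 called in either direction. The fibroblast list was lower without overlap in CD36KO (442 to 491 FPKM, against 540 to 609 FPKM in WT), and the endothelial list in the libraries labelled CD36CKO (371 to 409 FPKM, against 448 to 498 FPKM in WT). Single markers of these lists did not all follow the sums. Of 10 fibroblast markers, 1 was called higher and 3 lower in CD36KO minus WT, and 1 higher and 2 lower in CD36CKO minus WT. Of 12 endothelial markers, 2 were called higher and 2 lower in CD36KO minus WT, and 0 higher and 3 lower in CD36CKO minus WT. No listed marker was at 0 in every library. Whether a gene was lower in its cells or those cells were fewer cannot be told apart in whole-heart RNA, for Erbb2 and every gene below. Erbb2 shares 9 bases at its 3′ end with Mien1 on the opposite strand, which averaged 16.9 FPKM in CD36KO, 12.3 FPKM in the libraries labelled CD36CKO and 15.6 FPKM in WT, and whether counting used the strand is not stated.

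The stretch just before the Erbb2 start is shown because Erbb2 carried the only difference found in all 3 comparisons. It is from RefSeq's GRCm38.p6 table, covers the 250 bases before the annotated start, and has its CpG pairs in capitals.
Erbb2 upstream (chr11:98412234-98412483, plus strand): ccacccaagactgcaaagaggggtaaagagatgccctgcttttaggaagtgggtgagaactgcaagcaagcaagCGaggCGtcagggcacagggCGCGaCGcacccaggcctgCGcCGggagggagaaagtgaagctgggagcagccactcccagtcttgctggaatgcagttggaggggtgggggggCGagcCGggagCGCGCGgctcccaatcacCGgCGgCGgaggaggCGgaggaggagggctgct
In the full window of 300 bases, which runs 50 bases past the start, 66.0% of the bases were G or C, against a median of 52.7% over 32851 such windows. A search of both strands found none of 4 motifs in it: GGGCGG, the GC box (in 35.7% of all windows), TATAAA, the TATA box (13.6%), AGGTCA, the half-site of many nuclear receptors (16.3%), and 2 AGGTCA half-sites in the same direction with 1 base between them (0.0396%), whose matches also hold the single half-site. Promoter windows were found for 5 of the 9 genes: Agrn, Erbb2, Erbb4, Igf1 and Igf1r.

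Erbb3 and Erbb4, the receptors that bind neuregulin, did not pass the threshold in any comparison. Erbb3 (ENSMUSG00000018166, chromosome 10, 128403392 to 128425521) had 1.91, 1.73 and 1.64 FPKM in CD36KO, 2.07, 2.502 and 1.84 FPKM in the libraries labelled CD36CKO, and 2.52, 1.89 and 2.63 FPKM in WT. The CD36KO libraries were at the low end and 1 of them overlapped WT. Its log2 difference was -0.27 in CD36KO relative to WT (95% interval -0.55 to 0.01, FDR = 0.180 from limma) and -0.09 in the libraries labelled CD36CKO (-0.37 to 0.19, FDR = 0.650 from limma). Erbb4 (ENSMUSG00000062209, chromosome 1, 68071345 to 69147218) had 1.27, 1.37 and 0.871 FPKM in CD36KO, 1.17, 1.18 and 0.755 FPKM in the libraries labelled CD36CKO, and 0.994, 0.475 and 1.14 FPKM in WT. The 3 groups overlapped, and WT 2 was the lowest library. Erbb4 differed by 0.22 in CD36KO (-0.17 to 0.61, FDR = 0.413 from limma) and by 0.13 in the libraries labelled CD36CKO (-0.26 to 0.52, FDR = 0.623 from limma). Several short entries lie within Erbb4 on the same strand, the highest at a mean of 0.523 FPKM, so its level is uncertain.

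**Figure D2:**
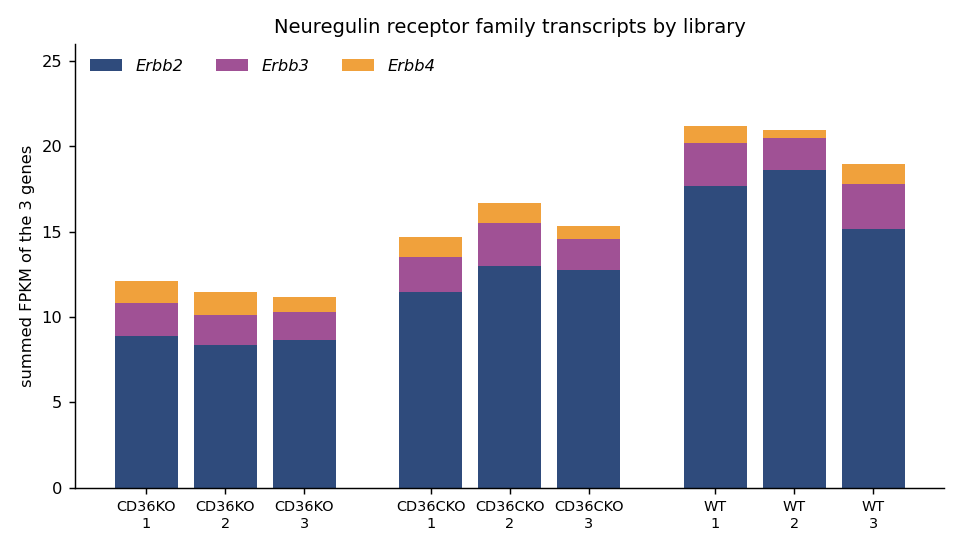
Stacked FPKM of Erbb2, Erbb3 and Erbb4 in each library, with CD36KO on the left, the libraries labelled CD36CKO in the middle and WT on the right. The stacks end between 11.2 and 12.1 FPKM in CD36KO, 14.7 and 16.7 in the libraries labelled CD36CKO and 19.0 and 21.2 in WT, and Erbb2 is the largest part of each.

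Because FPKM is scaled to gene length, the 3 receptor genes can be added. Their sum was 11.6 ± 0.463 FPKM in CD36KO, 15.6 ± 1.02 FPKM in the libraries labelled CD36CKO and 20.4 ± 1.23 FPKM in WT (SD, n = 3 each), with no overlap between any pair. Erbb2 made up 73.7%, 73.1% and 77.5% of the sum in CD36KO, 77.9%, 78.0% and 83.1% in the libraries labelled CD36CKO, and 83.4%, 88.7% and 80.1% in WT. Its share was lower in every CD36KO library than in any other library, while the libraries labelled CD36CKO overlapped WT. An exact two-sided permutation test gave p = 0.1 for each pair in the sum and for CD36KO against either other group in the share, and p = 0.2 for CD36CKO against WT in the share. With 3 libraries against 3 the smallest p this test can give is 0.1, and over the 6 tests the adjusted values were 0.12 and 0.2. Erbb2 was the largest part of every sum, so the sum largely repeats the Erbb2 difference and is no separate result for the family.

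Hbegf, an EGF-family ligand gene of ERBB4, was the only one of 11 other EGF and neuregulin family genes with a mean of at least 1 FPKM. It averaged 2.57 ± 0.311 FPKM in CD36KO, 2.29 ± 0.18 FPKM in the libraries labelled CD36CKO and 2.66 ± 0.269 FPKM in WT (SD, n = 3 each), and passed no threshold. None of 12 tested regulators of ERBB signalling, among them the proteases that release ERBB ligands, chaperones and ubiquitin ligases, passed by limma in any of the 3 comparisons at the adjusted threshold. At an unadjusted p under 0.05 there were 4 higher in CD36KO relative to WT. At this limit 2 were higher and 1 lower in the libraries labelled CD36CKO relative to WT, and 1 lower in CD36KO relative to CD36CKO. Many genes were under this limit against WT. Igf1r was under it in CD36KO and ranked 2937th of 12206 genes by p. Fgf1 was under it in the libraries labelled CD36CKO and ranked 2420th. The share of all tested genes under this limit was not worked out, so counts at it, here and below, have no background beside them. Limma's voom on recovered reads called 1, Adam17, in CD36CKO minus WT. Adam17, a protease that sheds EGF-family ligands, came nearest, at 4.65 ± 0.279 FPKM in CD36KO, 4.56 ± 0.138 FPKM in the libraries labelled CD36CKO and 3.47 ± 0.434 FPKM in WT. Its log2 differences from WT were 0.34 (FDR = 0.0511 from limma) and 0.32 (FDR = 0.0626), with no overlap with WT. Such higher values without overlap were found for 17.4% and 15.7% of all tested genes. The proteases Adam10, Adam19 and Bace1, which can also cleave neuregulins or other ERBB ligands, differed from WT by 0.27, 0.35 and 0.03 in CD36KO, and by 0.08, 0.22 and 0.34 in the libraries labelled CD36CKO, none past the threshold.

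Igf1 (ENSMUSG00000020053, chromosome 10, 87694127 to 87772904), the insulin-like growth factor gene, did not separate the genotypes. It had 4.56, 4.07 and 4.57 FPKM in CD36KO, 4.23, 3.78 and 4.79 FPKM in the libraries labelled CD36CKO, and 4.27, 5.12 and 2.998 FPKM in WT. The lowest and the highest value were both WT. Its log2 difference from WT was 0.09 in CD36KO (95% interval -0.25 to 0.44, FDR = 0.708 from limma) and 0.06 in the libraries labelled CD36CKO (-0.29 to 0.40, FDR = 0.828 from limma). Without WT 3 both differences were below 0 and still not past the threshold.

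Igf1r (ENSMUSG00000005533, chromosome 7, 67602575 to 67883416), the receptor gene, had 3.87, 3.98 and 4.17 FPKM in CD36KO, 4.52, 6.29 and 4.54 FPKM in the libraries labelled CD36CKO, and 5.35, 4.59 and 6.53 FPKM in WT. All 3 CD36KO libraries were below the other 6, and the other groups overlapped. The CD36KO mean was 72.9% of the WT mean, a log2 difference of -0.36 (95% interval -0.68 to -0.05) that did not pass after adjustment (FDR = 0.119 from limma). CD36KO differed from the libraries labelled CD36CKO by -0.28 (-0.60 to 0.04, FDR = 0.288 from limma). A lack of overlap of this kind was found for 35.2% of all tested genes in CD36KO against WT and for 36.6% in CD36KO against CD36CKO.

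In the wider IGF system 2 of 15 tested genes passed in each knockout against WT, and none passed by limma between CD36KO and CD36CKO, where 7 were under an unadjusted p of 0.05 and voom called 0. Over all tested genes 12.5% passed in CD36KO minus WT and 12.7% in CD36CKO minus WT. Igfbp2, a binding protein that holds IGFs in the extracellular space, fell to 1.44 ± 0.957 FPKM in CD36KO and 1.52 ± 1.09 FPKM in the libraries labelled CD36CKO, against 7.72 ± 1.88 FPKM in WT (log2 differences -1.88 and -1.85, FDR = 0.0116 and 0.0119 from limma). Its lowest WT library, at 5.55 FPKM, was above the highest of the other 6, at 2.74 FPKM. Igfbp7, a secreted protein related to the IGF binding proteins, rose to 148 ± 17.8 FPKM in CD36KO, against 90.5 ± 12.2 FPKM in WT (0.70, FDR = 0.0277 from limma), and was 94.9 ± 15.2 FPKM in the libraries labelled CD36CKO. Igfbp4, another IGF binding protein gene, fell to 48.2 ± 5.67 FPKM in the libraries labelled CD36CKO, against 81.0 ± 13.8 FPKM in WT (-0.73, FDR = 0.0196 from limma), and differed by -0.34 in CD36KO (FDR = 0.165). Grb10, an adaptor that restrains the insulin and IGF1 receptors, did not pass. The insulin receptor gene Insr differed by 0.31 in both knockouts and did not pass. Igf2 shares its span with another entry on the same strand and is uncertain.

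Fgf1 (ENSMUSG00000036585, chromosome 18, 38971726 to 39062525), the acidic fibroblast growth factor gene, was the one tested gene of the 8 with a higher call. It had 10.2, 11.1 and 11.7 FPKM in CD36KO, 9.49, 10.1 and 10.5 FPKM in the libraries labelled CD36CKO, and 8.22, 8.37 and 5.46 FPKM in WT. Every library of both knockouts was above every WT library, and the 2 knockouts overlapped. Of all tested genes, 17.4% were higher without overlap in CD36KO against WT and 15.7% in CD36CKO against WT. The Fgf1 means were 149.9% and 136% of WT. Fgf1 rose in CD36KO by 0.54 on the log2 scale (SE 0.14, FDR = 0.0393 from limma), beside 5.81% of all tested genes with a higher call there. In the libraries labelled CD36CKO the difference was 0.42 (SE 0.14, 95% interval 0.10 to 0.74) and missed the threshold (FDR = 0.0822 from limma). The CD36KO call was close to the threshold: it held in 7 of 17 other settings and, with 1 library left out, only without WT 2 or WT 3 (FDR from 0.022 without WT 3 to 0.128). The direction was the same in all 17, with differences from 0.37, without WT 3, to 0.67.

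**Figure D3:**
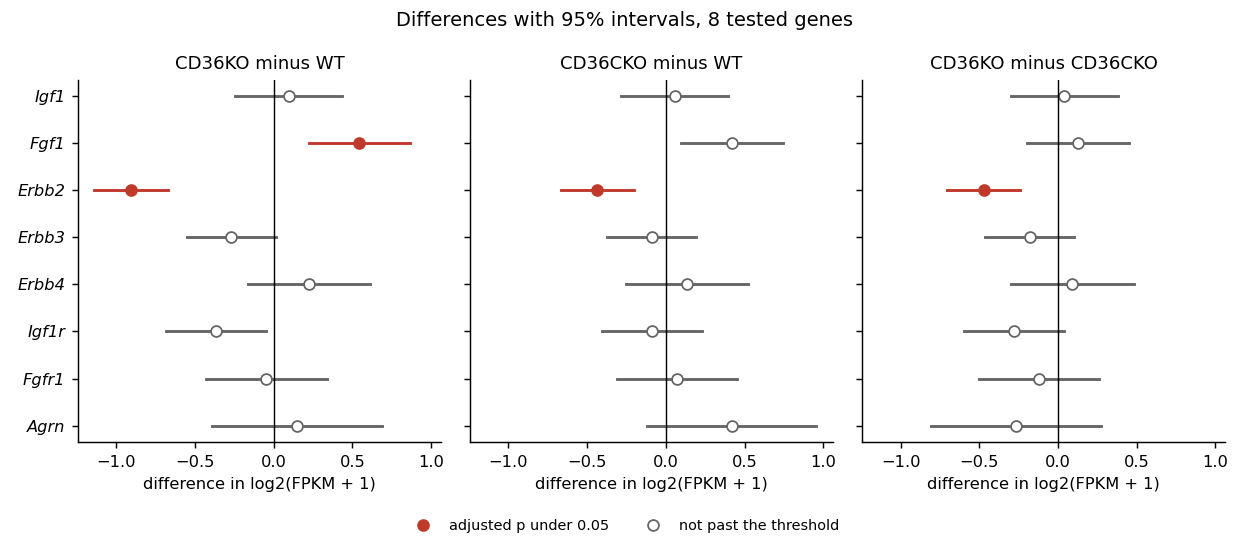
Differences in log2(FPKM + 1) with 95% intervals from limma for the 8 tested genes, in CD36KO minus WT, CD36CKO minus WT and CD36KO minus CD36CKO; filled red points passed an adjusted p under 0.05. Erbb2 is the only filled point in all 3 panels (-0.91, -0.43 and -0.47), and Fgf1 is filled in the first (0.54).

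Fgfr1 (ENSMUSG00000031565, chromosome 8, 26003670 to 26065734), the highest of the FGF receptor kinase genes here, had 4.50, 4.57 and 4.54 FPKM in CD36KO, 4.54, 4.79 and 5.78 FPKM in the libraries labelled CD36CKO, and 4.08, 3.76 and 6.73 FPKM in WT. The CD36KO libraries were nearly equal, while WT 3 was far above the other WT libraries. The log2 difference from WT was -0.05 in CD36KO (95% interval -0.43 to 0.34, FDR = 0.878 from limma) and 0.07 in the libraries labelled CD36CKO (-0.31 to 0.45, FDR = 0.796 from limma). Without WT 3 the CD36KO difference was 0.17, not past the threshold. Fgfr2, Fgfr3 and Fgfr4 averaged 0.499, 1.54 and 0.294 FPKM over the 9 libraries.

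Among the other FGF ligands, receptors and binding proteins, 9 of 29 were tested. Fgf12 and Fgf13 encode FGF homologous factors, which stay inside the cell and act on sodium channels. Fgf12 had 0.0281 to 1.499 FPKM in CD36KO and 0.0289 to 1.29 FPKM in the libraries labelled CD36CKO, against 2.93 to 4.40 FPKM in WT, and fell in both (-1.75 and -1.78, FDR = 0.0210 and 0.0204 from limma). It is also 1 of the 12 atrial markers given above. Fgf13 rose to 15.2 ± 0.859 FPKM in CD36KO, against 9.76 ± 0.489 FPKM in WT (0.59, FDR = 0.0174 from limma), and was 11.9 ± 1.97 FPKM in the libraries labelled CD36CKO. Fgfbp3, a binding protein that frees FGFs from the matrix, rose in CD36KO (0.60, FDR = 0.0368 from limma) and differed by 0.51 in the libraries labelled CD36CKO (FDR = 0.0570). Fgfr3 did not pass.

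The FGF feedback list held 14 tested genes that FGF signalling induces, that feed back on it or that carry it as adaptors. Of these, 2 rose in CD36KO and 4 in the libraries labelled CD36CKO relative to WT, and none fell by limma (1 was lower in each at an unadjusted p under 0.05, 0 by voom). Over all tested genes 5.81% and 5.36% had a higher call in these comparisons. Spred1, which restrains RAS and RAF, rose to 6.10 ± 0.321 FPKM in CD36KO and 4.86 ± 0.589 FPKM in the libraries labelled CD36CKO, against 3.48 ± 0.288 FPKM in WT (0.67 and 0.39, FDR = 0.00736 and 0.0426 from limma). Spred2, its close relative, rose to 4.85 ± 0.634 FPKM and 5.30 ± 0.428 FPKM in these groups, against 3.21 ± 0.388 FPKM in WT (0.47 and 0.59, FDR = 0.0306 and 0.0156 from limma). Both encode inhibitors of the relay. The Sprouty gene Spry2, another inhibitor, rose by 0.53 in the libraries labelled CD36CKO (FDR = 0.0356 from limma) and differed by 0.40 in CD36KO (FDR = 0.0811), and Flrt2, a transmembrane protein of the FLRT family, rose by 0.47 in the libraries labelled CD36CKO (FDR = 0.0220). Etv4, an ETS factor that FGF signals induce, was the only gene of the list to pass between CD36KO and CD36CKO, at 2.504 ± 0.0744 FPKM in CD36KO and 1.32 ± 0.451 FPKM in the libraries labelled CD36CKO (0.61, FDR = 0.0436 from limma), and it did not pass against WT. The median of the list was 0.21 in CD36KO and 0.22 in the libraries labelled CD36CKO, beside -0.01 and 0.00 over all tested genes. A higher median was not particular to this list. It was 0.25 and 0.26 for the FGF ligands and receptors, 0.15 and 0.16 for the shared relay and 0.14 and 0.15 for the ERBB regulators. The IGF system had -0.22 and 0.02 and the agrin partners 0.01 and -0.11. Over all 104 tested pathway genes it was 0.15 and 0.13. Log2 differences in the list ran from -0.52 to 0.67 in CD36KO and from -0.42 to 0.59 in the libraries labelled CD36CKO.

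Agrn (ENSMUSG00000041936, chromosome 4, 156249747 to 156281945), the agrin gene, had the highest mean of the 9 in each genotype. It had 19.9, 20.9 and 24.1 FPKM in CD36KO, 21.6, 30.1 and 27.4 FPKM in the libraries labelled CD36CKO, and 18.3, 13.4 and 29.2 FPKM in WT. The WT libraries were below and above all CD36KO libraries and overlapped those labelled CD36CKO, with WT 3 more than 10 FPKM above the other WT libraries. The log2 difference from WT was 0.15 in CD36KO (95% interval -0.39 to 0.69, FDR = 0.708 from limma) and 0.42 in the libraries labelled CD36CKO (-0.12 to 0.96, FDR = 0.255 from limma). WT 3 decides the second value: without it the difference was 0.70 (FDR = 0.0172 from limma), past the threshold. The direction in CD36KO turned without WT 2, at -0.10.

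Among 19 tested partners of agrin and other heparan sulfate proteoglycans, 3 fell in both knockouts relative to WT. Lower calls made up 6.7% of all tested genes in CD36KO minus WT and 7.32% in CD36CKO minus WT. Gpc3 and Gpc4 encode glypicans, which are anchored to the cell surface, and Col18a1 encodes a basement membrane collagen that carries heparan sulfate. Gpc3 fell to 21.1 ± 4.4 FPKM in CD36KO and 27.3 ± 2.64 FPKM in the libraries labelled CD36CKO, against 41.3 ± 3.97 FPKM in WT (-0.95 and -0.58, FDR = 0.00755 and 0.0377 from limma). Col18a1 fell to 24.9 ± 2.24 and 22.5 ± 1.27 FPKM in these groups, against 39.3 ± 3.91 FPKM in WT (-0.63 and -0.77, FDR = 0.0116 and 0.00497 from limma), and Gpc4 by 0.53 and 0.43 on the log2 scale (FDR = 0.0147 and 0.0304). Sgcb, a sarcoglycan of the dystroglycan complex, rose in both (0.47 and 0.37, FDR = 0.0236 and 0.0497 from limma), and Dmd, the dystrophin gene, rose in the libraries labelled CD36CKO (0.46, FDR = 0.0390 from limma). Sdc3, a syndecan, was higher in CD36KO than in the libraries labelled CD36CKO (0.43, FDR = 0.0335 from limma). The dystroglycan gene Dag1, whose product binds agrin, averaged 45.3 FPKM in CD36KO, 38.4 FPKM in the libraries labelled CD36CKO and 40.8 FPKM in WT and did not pass.

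All 34 genes of the shared RAS, MAP kinase, PI3 kinase and AKT relay were tested. In CD36KO 3 of them rose relative to WT, beside 5.81% of all tested genes with a higher call. None fell by limma (1 was lower at an unadjusted p under 0.05, 0 by voom). Among the 3 that rose were Nras, a RAS gene (0.32, FDR = 0.0434 from limma), and Foxo1, which encodes a transcription factor that AKT inhibits (0.37, FDR = 0.0492). In the libraries labelled CD36CKO none passed by limma (2 at an unadjusted p under 0.05, 0 by voom). Tsc1, which restrains mTOR, did not pass in any comparison.

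**Figure D4:**
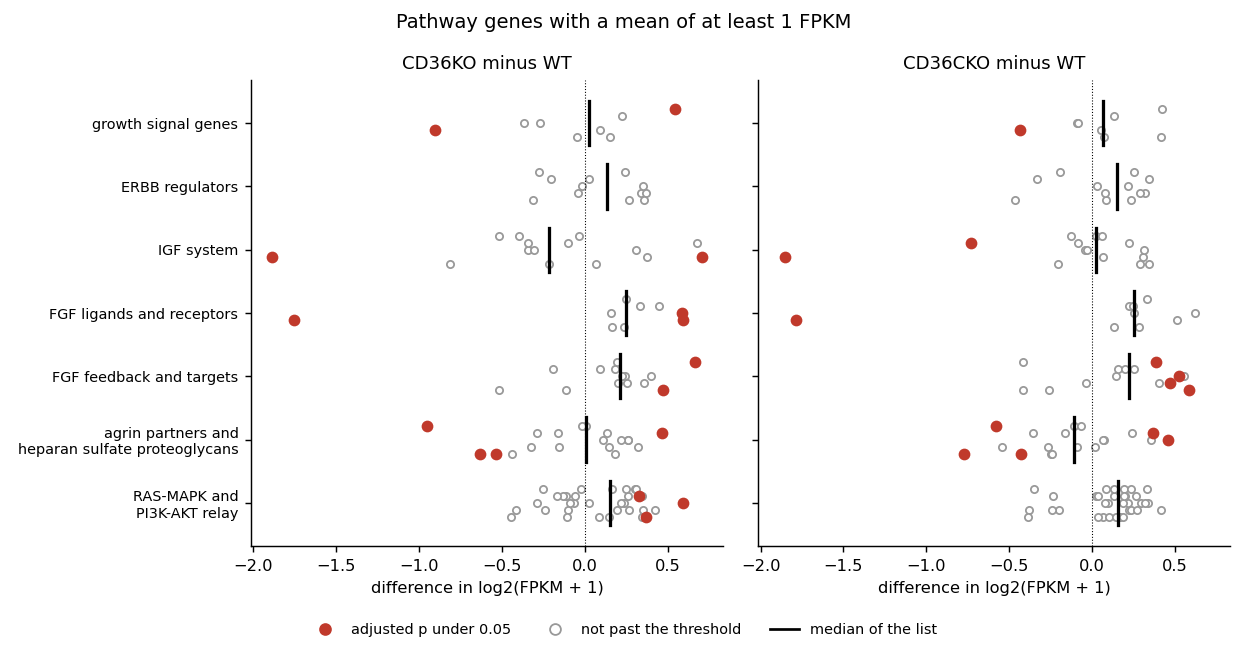
Differences in log2(FPKM + 1) of the 8 tested growth signal genes and of the tested genes of 6 pathway lists, in CD36KO minus WT and CD36CKO minus WT; filled red points passed an adjusted p under 0.05 and the black line is the list median. In CD36KO minus WT red points lie on both sides of 0 in the IGF, FGF ligand and agrin lists. In CD36CKO minus WT they do so in the agrin list, and lie only on the lower side in the IGF and FGF ligand lists. They lie only on the higher side in the FGF feedback list (2 in CD36KO and 4 in the libraries labelled CD36CKO) and in the relay list in CD36KO (3).

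Over 7 pathway lists together, without the 9 genes themselves, 14 of 104 tested pathway genes passed in CD36KO minus WT, 9 higher and 5 lower, which is 13.5% beside 12.5% of all tested genes. In CD36CKO minus WT 12 passed, 6 in each direction (11.5% beside 12.7%), and in CD36KO minus CD36CKO 2 passed (1.92% beside 4.53%). These shares are near or below the background. Igfbp2, Spred1 and Gpc3 in CD36KO and Col18a1 in the libraries labelled CD36CKO stayed past the threshold whichever 1 library was left out, and each other pathway call was lost in at least 1 of those 9 fits. The 2 comparisons with WT share the WT libraries. Of the 9 genes themselves, 8 were tested, and 2 passed in CD36KO minus WT, 1 in CD36CKO minus WT and 1 in CD36KO minus CD36CKO. Their median log2 differences were 0.02, 0.06 and -0.15.

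The order of the levels differed between genotypes in the places of Erbb2 and Fgf1 and of Igf1r. In CD36KO Agrn was followed by Fgf1 and Erbb2, which did not overlap. Then came Fgfr1, Igf1 and Igf1r, with overlap between Fgfr1 and Igf1 and between Igf1 and Igf1r. Erbb3, Erbb4 and Nrg1 followed, each apart from the next. In the libraries labelled CD36CKO Erbb2 stood above Fgf1 without overlap. There Igf1r came before Fgfr1 and Igf1, with overlap between Igf1r and Fgfr1 and between Fgfr1 and Igf1. In WT Erbb2 stood second, overlapping Agrn, and well above Fgf1. Across the 9 libraries Fgfr1 had the smallest spread of the 9 genes within CD36KO, a coefficient of variation of 0.749%, and Agrn, Nrg1 and Erbb4 the largest within WT, at 40.1%, 40.3% and 40.2%.

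Erbb2 was also the only one of the 8 tested genes to pass a moderated F test over the 3 genotypes (FDR = 0.0033 from limma, beside 17.4% of all tested genes). The protein-coding genes whose centred log2 values were most like those of Erbb2 over the 9 libraries were Slc39a13, which encodes a zinc transporter, at a root mean square difference of 0.10, and Shmt2, which encodes a mitochondrial serine hydroxymethyltransferase, at 0.12. The median over all such genes was 0.43 and the spread of Erbb2 itself 0.38. Slc39a13 had 8.22 to 8.54 FPKM in CD36KO, 12.2 to 13.5 FPKM in the libraries labelled CD36CKO and 13.9 to 15.9 FPKM in WT. Shmt2 had 18.0 to 18.9, 22.5 to 25.3 and 28.8 to 33.8 FPKM in the same order of groups. Both were lowest in CD36KO and highest in WT without overlap, and likeness to Erbb2 is what selected them. Slc39a13 did not pass in CD36CKO minus WT (-0.20, FDR = 0.160 from limma), and Shmt2 did not pass in CD36KO minus CD36CKO (-0.35, FDR = 0.0836 from limma).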

How the data were processed

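Messenger RNA was captured by its poly-A tail and made into directional libraries with dUTP, per the labels' protocols. FPKM values for every gene, with its symbol, position, strand and length, were deposited by the authors. The submitters' processing notes name CASAVA, HISAT, HISAT2 and TopHat2 and give neither version nor role. The sources used here do not give the read counter, the build or strand use. The table's positions match GENCODE M21 (GRCm38) for 2.83% of 52073 shared identifiers, so positions are given as the table has them and sequences by GRCm38.

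The product of FPKM and gene length rose in equal steps within a library, so reads could be recovered (100% of values within 0.05 reads of a whole number): 14408631 to 20725356 per library. A count of 0 allows up to 3 reads, or 0.128 to 0.192 FPKM for a gene of 1 kb, which covers counting error only. FPKM values are shares of a library, so a class that takes more reads lowers the rest.

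Tests used limma 3.58.1 (R 4.3.3) with log2(FPKM + 1) as the response, two-sided, for the 12206 genes with a mean of at least 1 FPKM. All 9 libraries entered 1 fit with a mean per genotype (6 residual and 3.68 prior degrees of freedom). Benjamini-Hochberg adjustment covered all tested genes, and adjusted p-values under 0.05 were called. Fold changes on this scale understate those of low genes. Receptor sums were compared by exact permutation tests.

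The 9 genes and all lists were chosen with earlier results of these data known. Text names the 9 genes, Cd36, up to 4 genes with the smallest F-test p from each pathway list, genes needed to name a count of 5 or fewer, and the 2 genes most like a gene past the F test. Tnnt2, Actn2, Insr, Igf2, Dag1, Mien1, the Fgfr paralogs and the other neuregulins fall outside that rule and were picked with their values in view. The alternatives were no filter, a mean of at least 5 FPKM, a pseudocount of 0.1, quantile normalization, removal of mitochondrial and haemoglobin genes, limma's voom on the recovered reads, the replicate number as a block and leaving out each library. Leaving out both libraries with Y-linked expression was added after seeing the data. The values of 1 gene that this rule names are not reported here.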

Additional observations from a re-analysis of the deposited data

How the results depend on the processing

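Erbb2 in CD36KO minus WT passed in every alternative run, and the limits below concern the rest. Of the 9 genes, the number past the threshold in CD36KO minus WT was 1, with Fgf1 lost, with no filter, with the replicate block and without both libraries with Y-linked expression, and leaving out 1 library gave 1 to 2. In CD36CKO minus WT it was 2 with voom, 0 with the block and 0 without both Y-linked libraries, and leaving out 1 library gave 0 to 2. It stayed at 1 with mitochondrial and haemoglobin genes removed, but there Fgf1 passed (0.67, FDR = 0.0121 from limma) and Erbb2 did not. In CD36KO minus CD36CKO it was 0 with no filter, with the block and without both Y-linked libraries, and leaving out 1 library gave 0 to 1. Leaving out 1 library also lowers the degrees of freedom.

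Over all genes the counts in CD36KO minus WT, CD36CKO minus WT and CD36KO minus CD36CKO were 1527, 1547 and 553. With no filter they were 743, 753 and 169 and with at least 5 FPKM 1037, 1000 and 338. With mitochondrial and haemoglobin genes removed they were 1028, 2022 and 361, and the share of lower calls moved to 31.1%, 20.03% and 57.9%, against 53.6%, 57.7% and 42.5%, and with voom to 49.9%, 42.6% and 53.7%. Without both Y-linked libraries they were 202, 413 and 47. Leaving out 1 library gave 413 to 3198, 333 to 3938 and 29 to 1452, the highest without WT 3 in each. With the replicate block they were 1004, 963 and 399. Correlations of deviations were -0.433 to 0.141 between libraries of the same number and -0.288 to 0.349 between those of different numbers. No pairing by number was seen, but with 3 libraries per genotype this check cannot exclude one.

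The sign changed in 50 fits over 24 differences between genotypes, none past the threshold before or after. In 36 of these fits the value moved by under 1 SE, and those are not listed. The other 14 follow, and the cause was not tested. Leaving out 1 library gave Igf1 -0.074 (without WT 3) to 0.23 in CD36KO and -0.11 (without WT 3) to 0.19 in CD36CKO, Fgfr1 -0.18 to 0.17 (without WT 3) in CD36KO and Agrn -0.10 (without WT 2) to 0.44 in CD36KO, all minus WT, and Fgf12 -0.39 (without CD36KO 2) to 0.40 in CD36KO minus CD36CKO. With mitochondrial and haemoglobin genes removed, Erbb3 was at 0.095, Igf1r at 0.14, Hbegf at 0.045, Sdc3 at 0.0087 and Slc39a13 at 0.057 in CD36CKO minus WT, and Adam17 at -0.087 and Sgcb at -0.023 in CD36KO minus CD36CKO. In that last contrast Fgf12 was at -0.43 with voom, and Adam19 at -0.0046 without both Y-linked libraries.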
